A study of Mus musculus with 12 samples.

Results

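Nonprimed FL MycER cells were compared with and without the complex I inhibitor IACS-010759, and all genes expressed above a minimum were followed in this single contrast. FL5.12 is an interleukin-3-dependent mouse line described as a lymphoid precursor, and the derivative used here is a selected pool that carries a retroviral fusion of MYC and the hormone-binding domain of the oestrogen receptor (MycER). Both groups carried MycER and neither received 4-hydroxytamoxifen (OHT), the ligand that activates it. The IACS group was exposed to 135 nM IACS-010759 for 24 h, the untreated group received no inhibitor, and each group had 3 biological replicates, so that 6 of the 12 libraries of the series enter the contrast directly. The OHT group received 100 nM OHT for 72 h in all, and the OHT_IACS group received the same OHT for 48 h before and then together with 135 nM IACS-010759 for 24 h. Cells were passaged in medium with reduced glucose ahead of exposure to the inhibitor. These 6 OHT-primed libraries share none with the nonprimed contrast and are given beside it. Of 21671 genes in the table, 9745 had an RPKM (reads scaled to the length of the gene and to the library total) of at least 1 in at least 3 libraries and were tested, all others being left out. Changes in target genes of ATF4 and in sterol synthesis are given only as counts, and the text turns on the remaining functions.

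Complex I is the entry point of NADH electrons into the respiratory chain, where their passage to ubiquinone is coupled to proton pumping. When it is blocked, NADH is no longer reoxidized by the chain, less oxygen is consumed by the mitochondria, and cells depend on glycolysis, lactate formation and cytosolic shuttles for ATP and NAD+. Oxygen is also the substrate of the prolyl hydroxylases that mark hypoxia-inducible factors (HIF) for destruction, and glucose-derived metabolites control the MondoA target genes. Both gene sets are therefore described below. The RNA libraries do not measure oxygen, metabolites or the activity of these factors, and the causes of changes in these sets were not tested.

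Library totals, worked out from the steps between RPKM values, ran from 13375674 to 14550158 reads in untreated and from 11133789 to 13729131 in IACS libraries, with the lowest in IACS replicate 3. The reads of abundant genes levelled off with depth. The median slope of log2 reads on log2 library total was 1.38 in 4422 genes with fewer than 0.1 reads per base and 0.184 in 84 genes with 1 or more, a slope of 1 being proportional. Since the IACS totals were lower, values of abundant genes stand beside this fact below, and its part in their differences was not tested. All replicate pairs differed by more than sampling noise, so no library was counted as a copy of another.

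The label of a lymphoid precursor was checked against marker genes. Of 26 B-lineage markers, Pax5, Rag1, Il7r and Dntt had no read in any untreated or IACS library, and 17 had at most 3 reads in each untreated library. The transcripts Cd79a (mean RPKM 0.994) and Cd79b (2.95) were low, whereas Tcf3 stood at 24.3, Ikzf1 at 5.74 and Ptprc, the pan-leukocyte phosphatase CD45, at 17.2. In the same untreated libraries the mean RPKM of Gata1 was 27.1, of Gata2 34.2, of Tal1 41.9 and of Itga2b 14.8, all genes of erythroid, megakaryocyte or mast cell precursors. The myeloid genes Cebpe, Mpo and S100a8 stood at 23.6, 12.8 and 23.1. Absent reads were not confined to lineage genes. Ldhb and Prdx4 also had no read in these libraries and Hmgcs1 had at most 2, and 6220 of 21671 genes were at 0 in every library. Whether a gene without reads lacked RNA or was missed by the counting was not tested. As counted, the markers do not show a committed B-lineage identity, and the cells are called by the name of the line only. Between the groups, the summed RPKM of the 26 B-lineage markers ran from 69.5 to 70.8 in untreated and from 70.9 to 77.7 in IACS libraries, and none of the 7 tested members passed the test. With the library total as a covariate or with quantile normalization, 1 of the 7 rose. The summed RPKM of 20 neutrophil and monocyte markers ran from 123 to 129.5 and from 111.5 to 136.5, and that of 15 erythroid and megakaryocyte markers from 105.1 to 109.6 and from 96.2 to 102.8. The sum of 13 mast cell and basophil markers was higher with IACS, at 67.2 to 71.6 against 57.9 to 58.4, with Cpa3 and Fcer1g the members called. Of these 13, 7 had at most 3 reads in each library, and Fcer1g made up a mean of 24.6 (IACS) and 18.1 (untreated) of the sum. The sum of 20 T and NK cell markers was 36.7 to 38.8 against 26.4 to 26.9, but Gzmb, which mast cells also express, made up a mean of 32.7 and 21.8 of it, 15 of the 20 had at most 3 reads in each library, and Gzmb was the 1 of 3 tested members that passed the test. In bulk RNA, a change in the share of cells and a change in RNA per cell cannot be told apart.

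IACS-010759 changed 1548 of the 9745 genes (15.9%) at an adjusted p under 0.05, of which 794 rose (8.15%) and 754 fell (7.74%). A change of at least 1 on the log2 scale, that is 2-fold, was seen in 42 of these differentially expressed genes (DEGs), and the median size was 0.307. Leaving out untreated replicate 1, 2 or 3 gave 950, 988 or 1029 DEGs, and leaving out IACS replicate 3 gave 1027. With the RPKM as deposited, without further scaling, 867 rose and 469 fell. The 6 libraries did not overlap between groups in 3758 genes (38.6%). The target genes of ATF4 and the sterol genes made up 71 of the DEGs. Of 53 ATF4 targets 42 rose and 1 fell with a median log2 fold change of 0.35, and of 38 sterol and SREBP genes 28 fell and none rose with a median of -0.33. The other 1477 DEGs, 752 higher and 725 lower, are described below. Counts of called members in each list are to be read beside the shares of all genes, 8.15% higher and 7.74% lower. Genes named as risen or fallen kept that call with each of the 6 libraries left out in turn, unless stated otherwise, and log2 fold changes (± SE) are on the scale of log2(RPKM + 0.1).

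Among DEGs outside these lists whose libraries did not overlap between groups, the largest rise was that of Cox6a2, which encodes the heart and muscle isoform of a subunit of cytochrome c oxidase. Its RPKM was 0.113, 0.209 and 0.106 in the untreated libraries and 7.31, 4.86 and 5.45 with IACS. The untreated libraries held 1 to 2 reads each, so the rise is given as at least 18.1-fold against a floor of 3 reads per library (adjusted p = 6.4e-07). The partner isoform Cox4i2, which replaces another subunit of the complex in hypoxic lung, had at most 2 reads in any untreated or IACS library. Extl1, a glycosyltransferase of heparan sulfate synthesis, rose from 0.6, 0.501 and 0.562 to 5, 4.6 and 5.39 (2.94 ± 0.17, adjusted p = 1.5e-07). Aqp9, a channel for water, glycerol and other small solutes, rose from 3.41, 3.2 and 2.99 to 18.5, 18.3 and 15.3 (2.37 ± 0.08, adjusted p = 2.1e-09). In each of these genes every IACS library was above every untreated library by several fold.

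Of the other members of the 12 largest rises, Il16, a cytokine precursor, went from 1.39, 1.66 and 1.6 to 5.02, 4.83 and 4.3 RPKM (1.52 ± 0.10), and Cd69, an early activation receptor of lymphocytes, from 1.18, 1.27 and 1.32 to 3.47, 3.67 and 2.82 (1.30 ± 0.09). Lilrb4, an inhibitory receptor of myeloid cells with a near-identical paralogue that can share its reads, went from 1.15, 0.914 and 1.32 to 3.43, 3.47 and 2.39 (1.35 ± 0.24). Vegfc, a lymphangiogenic growth factor, rose from 0.596, 0.365 and 0.409 to 1.54, 1.51 and 1.1 (1.4 ± 0.21), on 10 to 15 reads untreated and 23 to 39 with IACS. Slc9a9, a sodium-proton exchanger of endosomes, rose by 1.41 ± 0.23 and Fam129a, which encodes the stress-responsive protein Niban, by 1.32 ± 0.12. The transcripts LOC106740 (1.39 ± 0.10) and I830077J02Rik (1.55 ± 0.28) also rose. The remaining member of the 12 largest rises, Mirlet7f-1, had at most 4 reads in any of these libraries and lost its call when untreated replicate 1 or any 1 of the IACS libraries was left out. No fold is given for it.

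**Figure D1:**
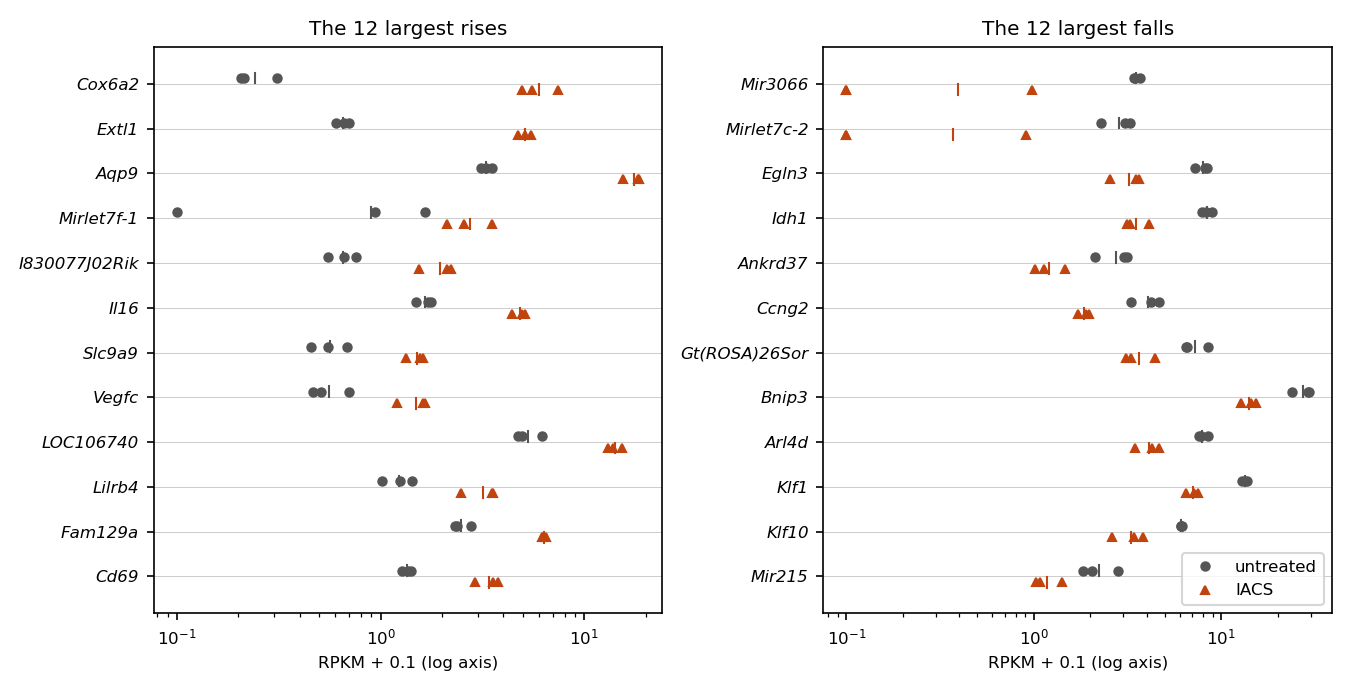
RPKM plus 0.1, on a log axis, of the 12 genes with the largest rises (left) and the 12 with the largest falls (right) with IACS-010759. Circles are the 3 untreated and triangles the 3 IACS libraries, and short lines are their means; in Cox6a2 the untreated libraries hold 1 to 2 reads, and in all 24 genes the groups do not overlap because the genes were chosen so.

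Among the largest falls, Egln3, Ankrd37, Bnip3 and Klf10 belong to the HIF and MondoA sets described next. Idh1, the cytosolic isocitrate dehydrogenase that makes NADPH, fell from 7.79, 8.85 and 8.24 to 4.01, 3.17 and 3.06 RPKM (-1.29 ± 0.09, adjusted p = 7.6e-07). Ccng2, a cyclin G associated with cell cycle arrest, fell from 4.12, 3.22 and 4.54 to 1.61, 1.79 and 1.86 (-1.15 ± 0.14). Klf1, the erythroid Krüppel-like factor, fell from 13.3, 12.9 and 13.7 to 7.08, 7.41 and 6.38 (-0.95 ± 0.06, adjusted p = 2.2e-07), and Arl4d, a small GTPase, from 8.39, 7.66 and 7.5 to 4.54, 4.16 and 3.38 (-0.98 ± 0.12). The noncoding transcript Gt(ROSA)26Sor, from the locus used for transgenes in the mouse, fell from 8.44, 6.43 and 6.5 to 3.19, 4.36 and 3.02 (-1.03 ± 0.14). It overlaps a gene on the opposite strand, and whether the counting used strand is not given in the sources used here. The 3 other members were microRNA precursor genes. Mir3066 and Mirlet7c-2 had at most 4 reads in any untreated or IACS library and are given no fold, and Mir215 (-0.94 ± 0.30) lost its call when any 1 of the 6 libraries was left out.

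Genes of the HIF pathway fell more often than they rose. Of 29 tested members of a list of HIF targets and prolyl hydroxylases, 12 fell (41.4%, beside 7.74% of all genes) and 4 rose (13.8%, beside 8.15%), with a median log2 fold change of -0.20 beside 0.004 over all genes. With each of the 6 libraries left out in turn, 9 to 12 fell, fewest without untreated replicate 2, and 4 rose each time. With the RPKM as deposited 9 fell.

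All 3 prolyl hydroxylase genes were lower with IACS. Egln3, which encodes PHD3, fell from 7.15, 8.14 and 8.29 to 3.43, 3.54 and 2.45 RPKM (-1.34 ± 0.11, adjusted p = 5.8e-06), by more than the spread within either group. Egln1, which encodes PHD2, and Egln2, which encodes PHD1, fell by less, at -0.34 ± 0.07 and -0.27 ± 0.07, and the call of Egln2 was lost without IACS replicate 3, untreated replicate 2 or untreated replicate 3. Vhl, the ubiquitin ligase subunit that recognizes hydroxylated HIF, was at -0.20 ± 0.05 and lost its call without the same libraries. Among target genes, Bnip3, a mitophagy receptor, fell from 29.1, 23.7 and 29.3 to 14.3, 15.2 and 12.6 RPKM (-0.98 ± 0.09, adjusted p = 1.3e-05), and its relative Bnip3l from 25.7, 23.9 and 24.3 to 19.2, 19.9 and 18.4 (-0.39 ± 0.05). Ankrd37, an ankyrin repeat gene induced by hypoxia, fell from 2.92, 2.01 and 3.04 to 0.913, 1.03 and 1.37 (-1.22 ± 0.23), on 27 to 40 reads untreated and 11 to 14 with IACS. Narf fell by 0.62 ± 0.12 and the glycolytic regulator Pfkfb4 fell by 0.49 ± 0.10. The members that rose, named after their values were seen, were Ero1l (0.37 ± 0.05), an oxidase of disulfide formation, Vegfa (0.33 ± 0.04), Bhlhe40 (0.32 ± 0.05) and Kdm4c (0.31 ± 0.07). Hif1a itself was at 0.08 ± 0.05 and its partner Arnt at 0.06 ± 0.11, neither of which passed the test.

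**Figure D2:**
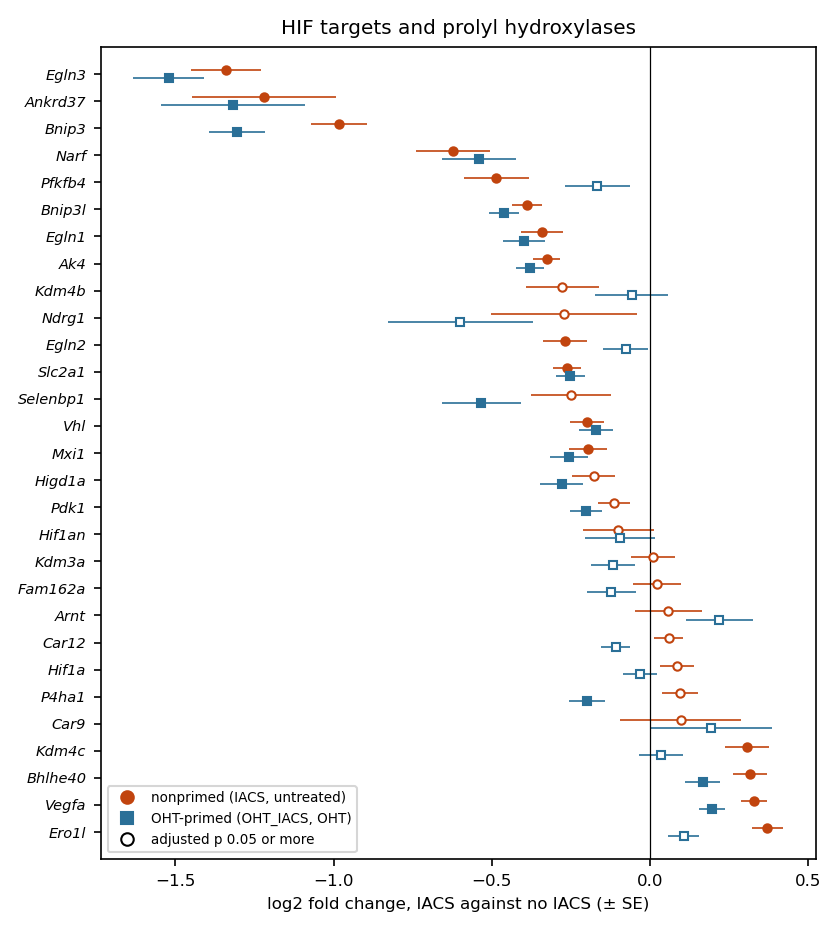
Log2 fold change with IACS (± SE) of the 29 tested HIF targets and prolyl hydroxylases, in nonprimed cells (circles) and in OHT-primed cells (squares). Filled symbols have an adjusted p under 0.05; Egln3, Ankrd37 and Bnip3 lie at -1.34, -1.22 and -0.98 in nonprimed and at -1.52, -1.32 and -1.30 in OHT-primed cells.

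The promoters of the 3 genes of this list that fell most are shown for the HIF core motif. They are the 250 bases before the RefSeq transcription start (GRCm38.p6, a later build than the mm9 of the deposited values), read 5′ to 3′ on the strand of the gene, with every ACGTG and its reverse complement CACGT in capitals. A CACGTG, the E-box that HIF shares with MYC and MondoA family factors, holds both overlapping letters.
Egln3, chr12:54203875-54204124, minus strand: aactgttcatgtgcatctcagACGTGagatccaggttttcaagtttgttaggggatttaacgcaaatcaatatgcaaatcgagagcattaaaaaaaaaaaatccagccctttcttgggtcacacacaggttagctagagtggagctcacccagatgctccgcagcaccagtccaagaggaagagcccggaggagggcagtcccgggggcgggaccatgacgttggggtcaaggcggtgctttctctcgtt
Ankrd37, chr8:45999851-46000100, minus strand: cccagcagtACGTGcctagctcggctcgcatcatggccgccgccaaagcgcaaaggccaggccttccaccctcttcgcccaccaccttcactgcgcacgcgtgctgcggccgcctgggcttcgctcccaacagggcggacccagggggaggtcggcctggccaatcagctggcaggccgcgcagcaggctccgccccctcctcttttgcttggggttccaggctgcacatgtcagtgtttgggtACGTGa
Bnip3, chr7:138909507-138909756, minus strand: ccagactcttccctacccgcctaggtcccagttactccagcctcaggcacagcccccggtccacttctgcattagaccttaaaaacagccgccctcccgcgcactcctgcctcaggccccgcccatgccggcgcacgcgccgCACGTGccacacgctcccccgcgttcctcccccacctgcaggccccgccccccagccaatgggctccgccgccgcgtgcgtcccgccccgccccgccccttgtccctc
The Egln3 window holds a single ACGTG, of which the first base is 229 bases before the start. That of Ankrd37 holds 2, at 241 and 6 bases before the start. The Bnip3 window holds a CACGTG whose first base is 108 bases before the start. Of the 12 genes that fell, 11 had a promoter in the table and 8 of these held ACGTG on either strand (Ak4, Ankrd37, Bnip3, Egln1, Egln2, Egln3, Mxi1 and Slc2a1). The same was true of 3 of the 3 matched genes that rose, beside 18.5% of all 27025 genes in the table and 16.6% of its 32851 windows of this length. CACGTG was found in 2 of the 11 (Ak4 and Bnip3), beside 6.86% of all genes. The list was written from knowledge of the HIF pathway, and its members that were not called were not searched. These shares therefore cannot tell whether the genes that fell hold the motif more often than the other members. Bnip3l and Bhlhe40 had no entry.

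Of 24 tested genes of glycolysis, glucose uptake and lactate transport, 3 fell (12.5%, beside 7.74% of all genes) and 1 rose (4.17%, beside 8.15%). The glucose transporter Slc2a1 fell from 23.6, 22.6 and 25.1 to 20.9, 19.99 and 19.7 RPKM (-0.26 ± 0.04, adjusted p = 0.0018). Pfkfb4 fell as given above, and Eno3, the muscle enolase, fell by 0.32 ± 0.09 and Pdk3, a pyruvate dehydrogenase kinase, rose by 0.17 ± 0.05, the last pair losing their calls without untreated replicate 1, untreated replicate 3 or IACS replicate 3, among others. The hexokinase gene Hk2 (0.01 ± 0.08, adjusted p = 0.97), lactate dehydrogenase Ldha (0.09 ± 0.10, adjusted p = 0.58), Pfkfb3 (0.08 ± 0.08, adjusted p = 0.52) and Pdk1 (-0.11 ± 0.05, adjusted p = 0.15) did not pass the test. In Ldha the untreated libraries stood at 68.4, 63.8 and 67 and the IACS libraries at 70.5, 66.4 and 80.6. With the library total as a covariate Ldha was at -0.06 (adjusted p = 0.13).

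Of 9 tested targets of MondoA and ChREBP, 3 fell (33.3%, beside 7.74% of all genes) and 1 rose (11.1%, beside 8.15%). When the library total was a covariate, 2 fell and 2 rose. Txnip, an arrestin that restrains glucose uptake, fell from 26.6, 27.2 and 28.1 to 22.5, 23.5 and 19.8 RPKM (-0.34 ± 0.05, adjusted p = 0.00063). Klf10 fell from 5.99, 6.03 and 6.09 to 3.34, 3.71 and 2.51 (-0.95 ± 0.12, adjusted p = 0.00022). Arrdc2 fell by 0.28 ± 0.08 but lost its call without IACS replicate 3, untreated replicate 1 or untreated replicate 2. Arrdc3, another arrestin of the family, rose from 2.66, 2.76 and 2.33 to 4.57, 4.76 and 4.74 (0.81 ± 0.09, adjusted p = 9.1e-05), and Arrdc4 had no read in these libraries. The promoters of Txnip and Arrdc2 hold neither CACGTG nor ACGTG in the window described above, and Klf10 had no entry. Only these exact letters were searched, so their absence does not show that a MondoA site is missing. In the list of the pentose phosphate pathway and NADPH supply, 3 of 14 genes fell (21.4%, beside 7.74% of all genes) and none rose. Beside Idh1, the mitochondrial NAD kinase Nadk2 fell from 8.91, 7.92 and 8 to 7.25, 7.01 and 6.36 (-0.29 ± 0.06), and Rpia (-0.17 ± 0.05) lost its call when any 1 of the 6 libraries was left out.

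Of 37 nuclear-encoded subunits of the inhibited complex itself, 1 rose and 1 fell (2.7% each, beside 8.15% and 7.74% of all genes), with a median log2 fold change of 0.09. With quantile normalization, which called 1095 genes higher and 966 lower in all, 6 of the subunits rose and 2 fell. Ndufv3, an accessory subunit of the NADH-binding module, fell from 22.7, 21.4 and 23.1 to 18.8, 18.5 and 19 RPKM (-0.28 ± 0.05, adjusted p = 0.0034). Its untreated and IACS libraries did not overlap, as in 38.6% of all genes tested. Ndufa7, another accessory subunit, rose by 0.21 ± 0.06 and lost its call when any 1 of the 6 libraries was left out. Ndufa1, an accessory subunit needed for assembly, was at 25.5, 22.6 and 25.9 untreated and 31.5, 27.6 and 27.1 with IACS (0.19 ± 0.09, adjusted p = 0.14). None of the 14 complex I assembly factors passed the test (median -0.08), and none of 17 ATP synthase genes did (median 0.08). Of 28 genes of complexes II to IV and cytochrome c, Cox6a2 and Sdha rose, the latter by 0.16 ± 0.05, and Sdha kept its call only without IACS replicate 2. Subunits encoded in mitochondrial DNA were not analysed here.

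These genes are abundant. The median read density was 0.503 reads per base for complex I subunits, 0.62 for complexes II to IV, 0.717 for ATP synthase and 0.874 for 81 cytosolic ribosomal protein genes, whose median log2 fold change was 0.13. Of the ribosomal protein genes Rpl22 rose (0.42 ± 0.08, adjusted p = 0.0028) and none fell, whereas 13 rose with quantile normalization, and 2 rose and 3 fell with the library total as a covariate. All 680 genes between 0.5 and 1 reads per base had a median of 0.05 and the 84 genes above 1 a median of 0.12, whereas the medians of the classes below 0.5 lay between -0.01 and 0.004. With a covariate for the log2 library total, the medians were 0.01 for complex I, -0.03 for complexes II to IV, -0.04 for ATP synthase and -0.02 for ribosomal proteins.

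**Figure D3:**
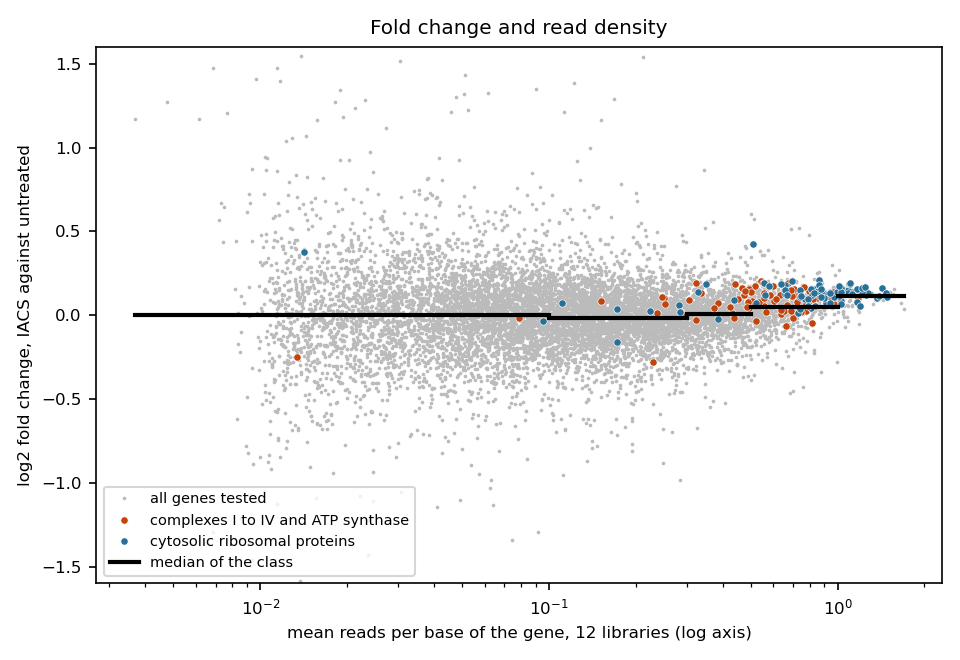
Log2 fold change of IACS against untreated cells, for each of the 9745 genes tested, by the mean reads per base of the gene on a log axis; orange points are complexes I to IV and ATP synthase, blue points cytosolic ribosomal proteins, and black lines the medians of 6 classes of read density. Both gene sets lie at the right, where the class medians rise to 0.05 and 0.12; 31 genes lie beyond the vertical axis.

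Of 19 chaperones and proteases of the mitochondrion, with the transcription factor Atf5, 7 rose (36.8%, beside 8.15% of all genes) and none fell, and 8 rose and 1 fell with the library total as a covariate. With each library left out in turn 3 to 7 rose, fewest without untreated replicate 2. Atf5, a regulator of the mitochondrial unfolded protein response that also stands in the ATF4 list, rose from 3, 3.52 and 2.95 to 10.9, 12.1 and 10.2 RPKM (1.75 ± 0.13, adjusted p = 2e-06). Oma1, the inner membrane protease that cleaves OPA1 and DELE1, rose from 4.01, 4.13 and 4.28 to 5.33, 6.36 and 5.34 (0.42 ± 0.10), a call lost without IACS replicate 2. Spg7, a subunit of the m-AAA protease, rose from 5.8, 4.99 and 5.46 to 7.13, 7.88 and 6.14 (0.34 ± 0.08), a call lost without untreated replicate 2, and Afg3l1 by 0.21 ± 0.05, lost without IACS replicate 2, IACS replicate 3 or untreated replicate 1. The chaperonin Hspd1, the best-known marker of this response, was at 72.8, 68.7 and 69.1 untreated and 74.4, 70.6 and 84 with IACS (0.09 ± 0.10, adjusted p = 0.6). With the library total as a covariate Hspd1 was at -0.06 (adjusted p = 0.11), so the sign of its difference depended on how depth was handled.

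Of 19 genes of mitochondrial dynamics and mitophagy, Bnip3, Bnip3l and Mtfp1 fell and Oma1 rose. Mtfp1, a promoter of fission, fell from 10.1, 10.9 and 11.1 to 9.31, 6.94 and 5.47 RPKM (-0.62 ± 0.14, adjusted p = 0.0084), with the 3 IACS libraries spread more widely than the untreated. Of 75 genes listed as mitochondrial ribosomal proteins, 4 fell and 1 rose, led by Mrps36 (-0.32 ± 0.06), which is listed by its symbol alone. With each library left out in turn 1 to 3 of them fell, fewest without untreated replicate 1, and with the library total as a covariate 11 fell. Of 26 import genes, Pmpcb (0.24 ± 0.06) and Tomm6 (0.20 ± 0.05) rose, both calls being lost without IACS replicate 1, IACS replicate 3 or untreated replicate 2, and with the library total as a covariate 2 rose and 3 fell.

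In the TCA cycle and pyruvate entry, 4 of 26 genes rose (15.4%, beside 8.15% of all genes) and 1 fell (3.85%, beside 7.74%). The rises numbered 2 to 4 with each library left out in turn, fewest without untreated replicate 1. Suclg2, the GTP-forming succinyl-CoA synthetase subunit, rose from 25.7, 24.6 and 24.3 to 30.6, 29.7 and 30.8 RPKM (0.26 ± 0.05), and Dld, the dehydrogenase shared by the 2-oxoacid complexes, from 28.9, 28.2 and 28.9 to 33.9, 33.7 and 32.9 (0.20 ± 0.04). Pdhx, the component that anchors Dld in the pyruvate dehydrogenase complex, fell by 0.23 ± 0.05. Of 13 genes of NADH shuttles, Gpd2 and Gpd1l fell, the first from 7.88, 8.25 and 7.98 to 6.89, 6.79 and 6.38 (-0.29 ± 0.06, adjusted p = 0.005). Gpd2 is the mitochondrial glycerol-3-phosphate dehydrogenase that passes electrons to ubiquinone beyond complex I. Gpd1l (-0.20 ± 0.06) kept its call only without IACS replicate 2, and the cytosolic partner Gpd1 had at most 15 reads in any untreated and 7 in any IACS library and was not tested.

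Of 30 genes of fatty acid oxidation and PPAR targets, 6 rose (20%, beside 8.15% of all genes) and 4 fell (13.3%, beside 7.74%). The rises numbered 1 to 4 and the falls 2 to 5 with each library left out in turn, both fewest without untreated replicate 1. Acot2, a mitochondrial acyl-CoA thioesterase, rose from 5.68, 5.66 and 5.48 to 8.28, 8.65 and 7.64 RPKM (0.51 ± 0.10), and Plin2, the coat protein of lipid droplets, fell from 5.51, 6.56 and 6.57 to 4.34, 5.02 and 4.05 (-0.49 ± 0.10). Cpt1a, the carnitine palmitoyltransferase of the outer membrane, did not pass the test (-0.18 ± 0.06, adjusted p = 0.078). In phospholipid and sphingolipid synthesis 4 of 27 genes fell (14.8%, beside 7.74% of all genes), 3 to 4 with each library left out in turn, and 1 rose (3.7%). Lpin1, a phosphatidate phosphatase, fell from 1.39, 1.44 and 1.6 to 0.639, 0.913 and 1.03 (-0.76 ± 0.17), the choline kinase Chka fell by 0.48 ± 0.11, and Pcyt2, which commits ethanolamine to phospholipid, from 18.8, 19.4 and 20.2 to 15.3, 15.6 and 12.7 (-0.45 ± 0.06). Cers6, a ceramide synthase, rose from 15.1, 16.6 and 15.9 to 21.2, 21.1 and 19.1 (0.34 ± 0.05). Of 10 genes of sterol efflux, only Abcg1 rose (0.45 ± 0.08), and Abca1 did not pass the test (-0.12 ± 0.20, adjusted p = 0.72).

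Of 30 NRF2 targets and antioxidant genes, 5 rose (16.7%, beside 8.15% of all genes) and 3 fell (10%, beside 7.74%). The falls numbered 1 to 3 with each library left out in turn, fewest without untreated replicate 1. The largest rise was that of the cystine transporter Slc7a11 (1.35 ± 0.07), which also stands in the ATF4 list. Hmox1, haem oxygenase, rose from 10.6, 10.9 and 12.8 to 17, 16.9 and 13.5 RPKM (0.43 ± 0.08, adjusted p = 0.0039), with IACS replicate 3 the lowest of its group. Nqo1 rose by 0.28 ± 0.09, a call lost without IACS replicate 1, IACS replicate 3, untreated replicate 2 or untreated replicate 3. Among 24 genes of iron and haem, 4 fell (16.7%, beside 7.74% of all genes) and Hmox1 rose (4.17%, beside 8.15%). When the library total was a covariate, 1 fell and 3 rose. Tfrc, the transferrin receptor, fell from 58.8, 56 and 54.4 to 41.3, 41.4 and 42.4 (-0.46 ± 0.08, adjusted p = 0.0015). The other falls were in Ppox (-0.47 ± 0.13), an enzyme of haem synthesis, in the iron transporter Slc11a2 (-0.30 ± 0.09) and in Slc25a38, each of which kept its call in 1 of the 6 omissions of a library, that without IACS replicate 2.

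Of 54 genes of the lysosome and autophagy, 7 rose (13%, beside 8.15% of all genes) and 3 fell (5.56%, beside 7.74%). There were 4 to 6 rises and 0 to 2 falls when each library was left out in turn. The fewest rises were found without untreated replicate 1 and the fewest falls without untreated replicate 3. Atp6v0a1, a subunit of the proton pump, rose from 2.47, 2.8 and 2.8 to 3.83, 3.69 and 3.84 RPKM (0.45 ± 0.10), and the galactosidase Glb1 from 3.5, 3.66 and 3.96 to 4.94, 4.85 and 4.81 (0.36 ± 0.07). Among 31 regulators of mTORC1 and AMPK, 4 rose (12.9%, beside 8.15% of all genes) and 2 fell (6.45%, beside 7.74%). There were as few as 2 rises without untreated replicate 2 and 0 falls without IACS replicate 3. Ddit4, an inhibitor of mTORC1, rose from 9.85, 8.65 and 11.1 to 16.5, 17.9 and 15.6 (0.73 ± 0.10) and Sesn2, a leucine sensor, from 7.03, 7.26 and 7.74 to 11.5, 11.1 and 12.5 (0.63 ± 0.07), both of which also stand in the ATF4 list. Camkk2, a kinase upstream of AMPK, fell by 0.29 ± 0.07, a call lost without IACS replicate 3.

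The DNA replication genes that changed all fell. Of 53 tested, 11 fell (20.8%, beside 7.74% of all genes) and none rose, 47 had a log2 fold change below 0, and the median was -0.13. With each library left out in turn 6 to 9 fell, fewest without untreated replicate 1, and with a covariate for the log2 library total 25 fell. The largest change was in E2f2, a transcription factor of the G1/S transition, from 3.74, 3.58 and 4.18 to 2.89, 3.01 and 2.5 RPKM (-0.47 ± 0.10, adjusted p = 0.0068). Ccne2, an E-type cyclin, fell from 8.39, 7.52 and 7.64 to 5.54, 6.7 and 5.61 (-0.42 ± 0.09), and Gins2, a subunit of the replicative helicase, from 25.3, 24.4 and 27.3 to 21.2, 21.5 and 16.4 (-0.42 ± 0.08). The chromatin assembly factor Chaf1b fell from 10.8, 10.5 and 11.7 to 9.61, 9.07 and 7.97 (-0.34 ± 0.06), and the helicase subunit Mcm2 did not pass the test (-0.13 ± 0.06, adjusted p = 0.17). With the library total as a covariate Mcm2 was called lower (-0.20, adjusted p = 0.0057).

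**Figure D4:**
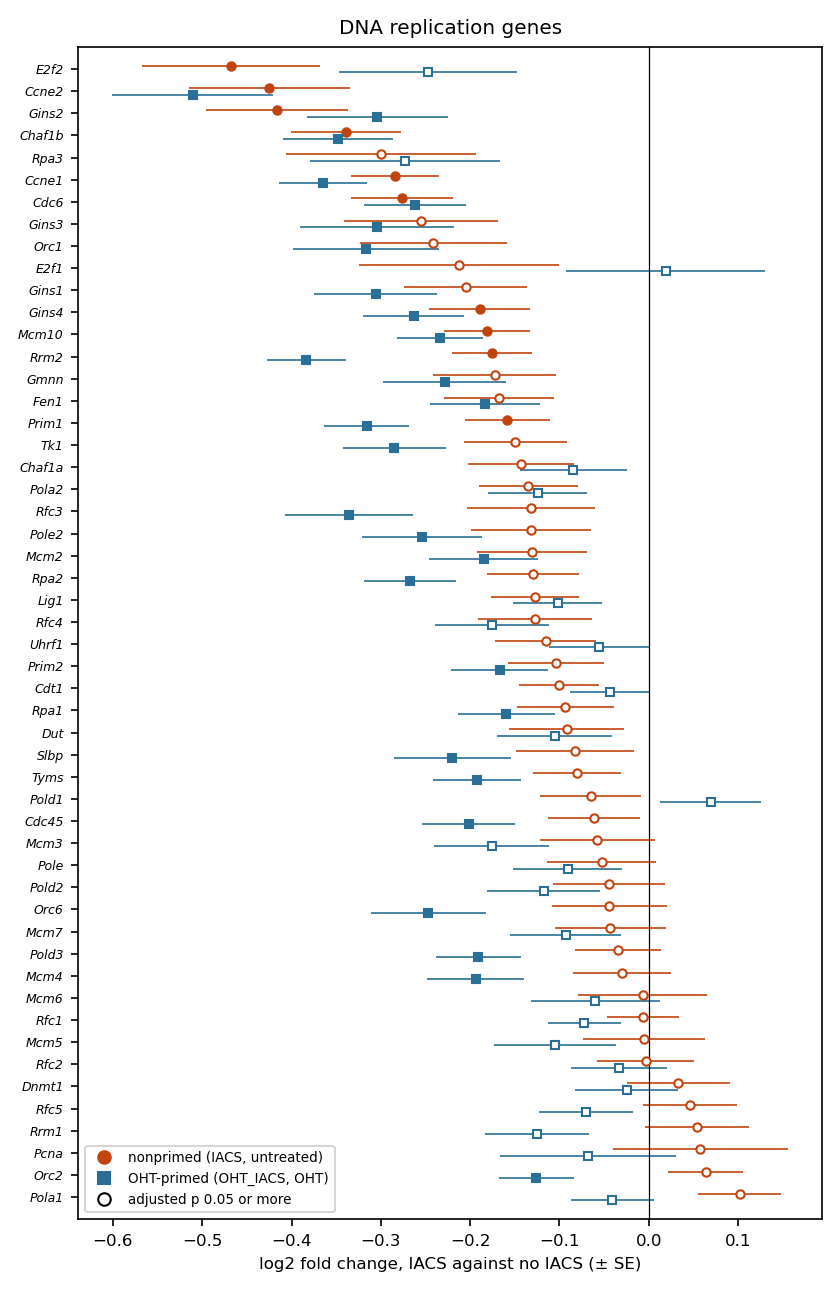
Log2 fold change with IACS (± SE) of 52 of the 53 DNA replication genes in nonprimed (circles) and OHT-primed cells (squares), with filled symbols at an adjusted p under 0.05. In nonprimed cells 46 of the 52 circles lie below 0 and 10 are filled.

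The other cell cycle lists held fewer changes. Of 46 genes of mitosis and the spindle 2 fell and none rose, and 8 fell and 1 rose with the library total as a covariate. The phosphatase Cdc25c fell from 11.3, 10.8 and 11.4 to 10.2, 9.03 and 7.74 RPKM (-0.34 ± 0.07). Cenpa, the centromeric histone variant, named after its values were seen, was at -0.22 ± 0.07 and lost its call when any 1 of the 6 libraries was left out, whereas Cdk1 was at -0.03 ± 0.07 (adjusted p = 0.81). None of 50 replication-dependent histone genes passed the test (median 0.02), but with the library total as a covariate 9 fell. Of 19 genes of the G1 phase, Cdk6 rose from 26.4, 28.2 and 28.1 to 33.5, 31.9 and 36.1 (0.26 ± 0.06), Ccng2 fell as given above, and the inhibitor Cdkn2c fell from 26, 24.6 and 24 to 22.4, 21.3 and 18.5 (-0.29 ± 0.06). Ccnd2, a D-type cyclin, rose by 0.17 ± 0.05 and kept its call only without IACS replicate 1. The inhibitors Cdkn1a (0.17 ± 0.08, adjusted p = 0.17) and Cdkn1b (-0.10 ± 0.07, adjusted p = 0.37) did not pass the test. Of 27 p53 targets 3 rose, 2 to 3 with each library left out in turn, and 1 fell, led by Sesn2 and by the repair gene Xpc (0.38 ± 0.09), and the fall, of Phlda3 (-0.37 ± 0.09), was lost without IACS replicate 3, untreated replicate 1 or untreated replicate 3.

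Of 71 genes of ribosome biogenesis and RNA polymerase I, Ddx10 and Heatr1 rose, by 0.19 ± 0.05 and 0.15 ± 0.05, and both lost their calls without IACS replicate 2, IACS replicate 3 or untreated replicate 3, and Heatr1 also without any of the others. In the same list 6 rose with the RPKM as deposited or with quantile normalization, and with the library total as a covariate none rose and 1 fell. None of 10 host genes of small nucleolar RNAs passed the test, and Gas5 was at 48.2, 47.5 and 48 untreated and 48.4, 49.9 and 49.9 with IACS (0.02 ± 0.07). In purine and pyrimidine synthesis Adssl1, an isozyme of adenylosuccinate synthase, rose from 3.86, 4.14 and 4.56 to 5.92, 7.05 and 5.79 RPKM (0.54 ± 0.09), and 3 of 37 genes fell, Dck and Rrm2 among them, 1 to 3 with each library left out in turn and fewest without untreated replicate 1. Of 11 polyamine genes 3 fell, 2 with any 1 library left out, and none rose. Oaz2, an antizyme, fell by 0.25 ± 0.05, whereas Odc1, the enzyme that antizymes inhibit, was at 0.12 ± 0.09 (adjusted p = 0.39). Of 41 proteasome genes 2 rose and 1 fell, the rises being in the activator subunits Psme2 (0.23 ± 0.06), lost without untreated replicate 2, and Psme1 (0.20 ± 0.06), kept only without IACS replicate 2. The fall, of Psmd3 (-0.14 ± 0.04), kept its call in 2 of the 6 omissions of a library and was named after its values were seen, and with the library total as a covariate 2 rose and 3 fell.

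Of 34 ER chaperones and targets of XBP1 and ATF6, 5 rose and 3 fell, and 5 rose and 8 fell with the library total as a covariate. Sensor genes of the ER stress response were among the rises. Ern1, which encodes IRE1, rose from 2.54, 2.68 and 3.07 to 4.09, 4.14 and 3.92 RPKM (0.51 ± 0.12) and Atf6 from 9.05, 9.35 and 9.01 to 13.1, 12.7 and 11.5 (0.41 ± 0.05, adjusted p = 0.00013). Sil1, the exchange factor of BiP, rose by 0.49 ± 0.11 and Herpud1, which also stands in the ATF4 list, by 0.43 ± 0.06. BiP itself, Hspa5, was at 83.5, 80.1 and 82.2 untreated and 78.8, 75.8 and 84.2 with IACS (-0.07 ± 0.09, adjusted p = 0.63). With the library total as a covariate Hspa5 was called lower (-0.19, adjusted p = 0.0003). The members that fell, named after their values were seen, were the chaperone genes Sdf2l1 (-0.39 ± 0.06), Creld2 (-0.27 ± 0.06) and Dnajc3 (-0.21 ± 0.06), the last of which lost its call without IACS replicate 2, IACS replicate 3, untreated replicate 1 or untreated replicate 2. In the cytosolic heat shock list of 23 genes, Hsph1, Dnajb1 and Dnajb4 fell and Hsf1 rose, each by less than 0.3, with each call lost in at least 3 of the 6 omissions of a library and with 0 falls without untreated replicate 3. With quantile normalization 4 of the list rose and 3 fell. Of 13 genes of the integrated stress kinases and the mitochondrial relay to them, Oma1 rose and Eif2b2, a subunit of the exchange factor of eIF2, fell from 22.1, 21.5 and 23.5 to 17.8, 20 and 17.4 (-0.31 ± 0.06).

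Of 13 BCL2 family genes 2 rose (15.4%, beside 8.15% of all genes) and none fell. Bcl2 rose from 23.3, 22.7 and 23.3 to 30.2, 28.8 and 28.6 RPKM (0.31 ± 0.05, adjusted p = 0.00079). Bcl2a1b, which has near-identical paralogues that can share its reads, rose by 0.92 ± 0.22, a call lost without untreated replicate 3. The antiapoptotic Mcl1 (-0.10 ± 0.05, adjusted p = 0.21) and Bcl2l1 (0.02 ± 0.05, adjusted p = 0.85) and the proapoptotic Bcl2l11, from 1.38, 1.23 and 1.21 to 0.897, 1.04 and 0.972 (-0.38 ± 0.14, adjusted p = 0.082), and Bbc3 (0.21 ± 0.11, adjusted p = 0.21) did not pass the test. In the MYC network of 12 genes 3 rose and 3 fell (25% each, beside 8.15% and 7.74% of all genes). The falls numbered 1 to 2 with each library left out in turn, fewest without untreated replicate 2. Mycn rose from 30.2, 28.6 and 30.5 to 39.1, 37.4 and 37 (0.32 ± 0.06, adjusted p = 0.0026) and Myc from 35.8, 35.9 and 37.2 to 46.6, 46.9 and 47 (0.34 ± 0.05, adjusted p = 0.00099). The groups did not overlap in either gene, as in 38.6% of all genes tested. Reads of the MycER transgene may count towards Myc, which was not tested. The MAX partner Mxd3, an antagonist of MYC, fell from 10.6, 7.78 and 9 to 6.18, 5.89 and 5.81 (-0.63 ± 0.09).

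Of 26 genes of the interleukin-3 receptor and JAK-STAT5 feedback, 6 rose (23.1%, beside 8.15% of all genes) and 1 fell (3.85%, beside 7.74%). There were 4 to 5 rises when each library was left out in turn, fewest without untreated replicate 2. The fall, of the feedback inhibitor Socs3 (-0.37 ± 0.12), named after its values were seen, was lost when any 1 of the 6 libraries was left out. Cish, a STAT5-induced feedback inhibitor, rose from 13.9, 15.5 and 15.7 to 23, 22.8 and 20.8 RPKM (0.53 ± 0.08, adjusted p = 0.0006), and Dusp6, a phosphatase of ERK, from 15.2, 14.1 and 13.8 to 21.4, 20.9 and 18.6 (0.47 ± 0.06). Il2ra rose from 0.372, 0.605 and 0.576 to 0.951, 1.1 and 1.03 (0.86 ± 0.20). The STAT5 targets Pim1 (0.14 ± 0.07, adjusted p = 0.18) and Socs2 (-0.13 ± 0.08, adjusted p = 0.3) did not pass the test. Among 19 NF-kB and immediate-early genes 4 rose (21.1%, beside 8.15% of all genes) and 2 fell (10.5%, beside 7.74%), 1 of these without untreated replicate 2. The growth arrest genes Gadd45a and Gadd45b went opposite ways, the first from 5.19, 6.12 and 5.89 to 11.5, 11 and 9.32 (0.85 ± 0.09) and the second from 9.8, 10.5 and 9.13 to 6.34, 7.02 and 5.32 (-0.68 ± 0.10). Klf6 rose from 5.23, 5.35 and 5.36 to 9.38, 8.24 and 7.73 (0.63 ± 0.06).

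Of 32 genes of adhesion, integrins and chemokine receptors, 8 fell (25%, beside 7.74% of all genes) and 4 rose (12.5%, beside 8.15%). With each library left out in turn 5 to 6 fell and 2 to 3 rose, both fewest without untreated replicate 1, and with quantile normalization 7 fell and 7 rose. Cd82, a tetraspanin, rose from 2.46, 2.71 and 2.61 to 6.76, 6.8 and 5.33 RPKM (1.21 ± 0.12, adjusted p = 2.3e-05), and Itgb3, the beta-3 integrin of megakaryocytes and mast cells, fell from 4.01, 5.06 and 5.37 to 3.29, 3.14 and 3.11 (-0.60 ± 0.10). Rras, a small GTPase of integrin activation, held 10 to 12 reads untreated and 1 to 3 with IACS and was at least 3.27-fold lower against the floor of 3 reads (adjusted p = 0.0001). Of 23 MHC class I and interferon genes 2 rose, 1 with any 1 library left out, and 1 fell. Erap1, the peptide-trimming protease, rose from 7.47, 8.14 and 7.81 to 10.2, 10.5 and 9.55 (0.34 ± 0.06), and Ifit2 fell by 0.40 ± 0.10, a call lost without IACS replicate 1 or untreated replicate 2. Among 14 clock genes Nfil3 rose from 12.7, 11.9 and 12.9 to 18.4, 17.7 and 15.4 (0.43 ± 0.06), Bhlhe40 rose as given above, and Tef fell from 6.72, 6.08 and 6.26 to 5.57, 5.29 and 4.79 (-0.31 ± 0.06).

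Markers of single blood lineages moved in both directions. Cpa3 and Fcer1g, of the mast cell and basophil list, rose, Cpa3 from 5.15, 4.59 and 4.05 to 7.89, 7.62 and 8.47 RPKM (0.76 ± 0.12) and Fcer1g from 18.6, 18.2 and 17.3 to 22.7, 26.3 and 24.7 (0.41 ± 0.07). The granule protease genes Ctsg, of neutrophils, and Gzmb, of cytotoxic and mast cells, rose from 9.77, 10.2 and 8.04 to 14.1, 15.3 and 12.6 (0.56 ± 0.13) and from 22.4, 21.8 and 21.1 to 33.9, 32.2 and 31.9 (0.55 ± 0.06). Klf1 and Gp9, of erythroid cells and platelets, fell, the latter from 3.13, 2.88 and 3.71 to 2.17, 1.89 and 1.66 (-0.76 ± 0.14). Prtn3, of promyelocytes, fell by 0.36 ± 0.09, a call lost without IACS replicate 3, untreated replicate 2 or untreated replicate 3, and the globin gene Hbb-b1, on 6 to 15 reads, rose by 0.67 ± 0.18, a call lost without IACS replicate 1 or 3 or untreated replicate 1 or 3.

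**Figure D5:**
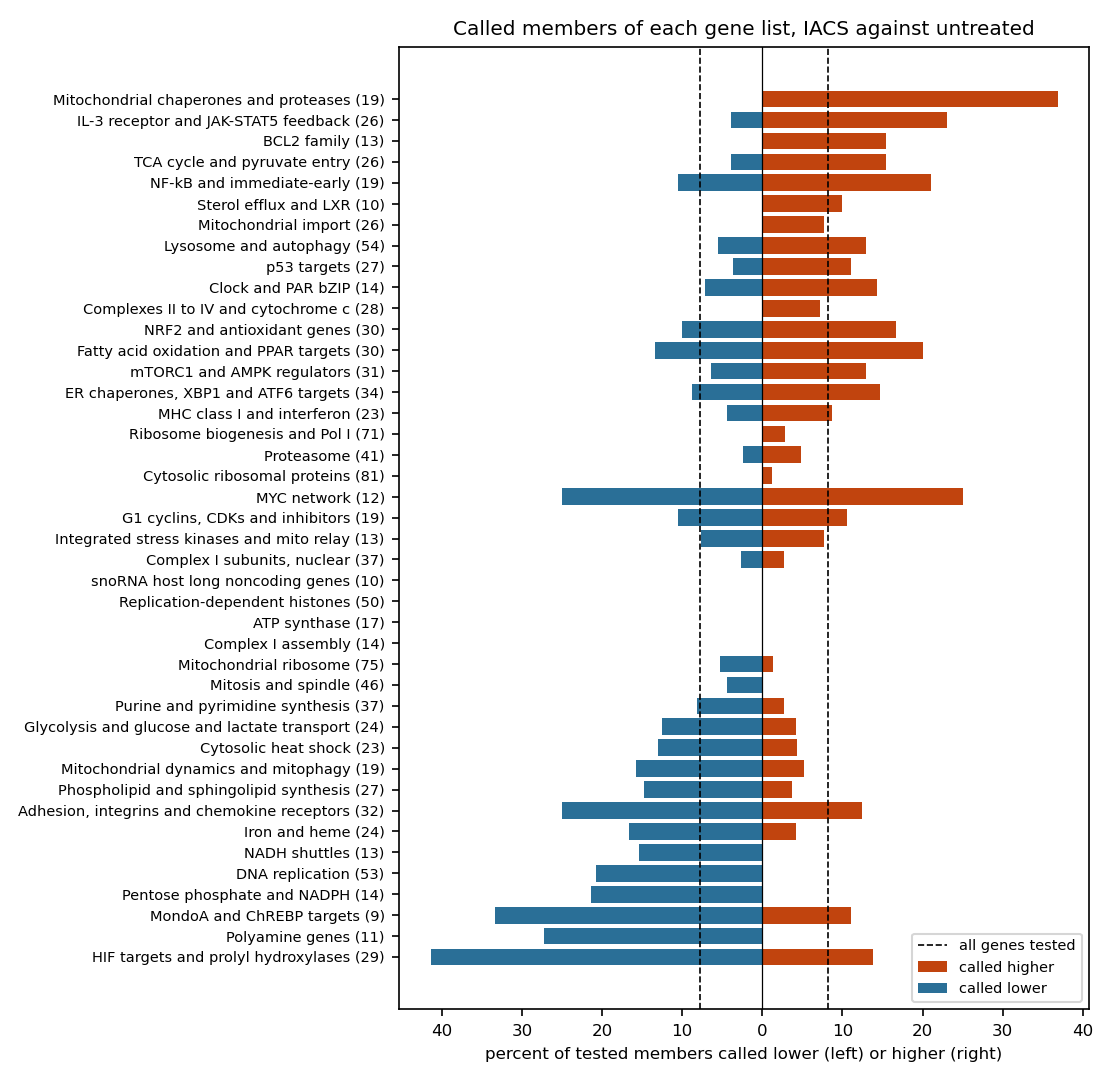
Percent of the tested members of each of 42 gene lists called lower (blue, to the left) or higher (orange, to the right) with IACS, with the number tested in parentheses and the shares over all genes as dashed lines (7.74% lower, 8.15% higher). The HIF list reaches 41.4% on the left and the mitochondrial chaperones and proteases 36.8% on the right.

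The same comparison in OHT-primed cells, on 6 other libraries, called 2310 of the 9745 genes (23.7%), 1164 higher (11.9%) and 1146 lower (11.8%), and 1521 without OHT_IACS replicate 3. In the HIF list 14 members fell and 2 rose in OHT-primed cells, with a median of -0.17, and Egln3 was at -1.52 and Bnip3 at -1.30. Among mitochondrial chaperones and proteases 7 rose and none fell, as in nonprimed cells. Of the DNA replication genes 29 fell, where 11.8% of all genes fell, beside 11 in nonprimed cells, where 7.74% of all genes fell. None of the members of these 3 lists passed the test of the difference between the responses. That interaction, the response in OHT-primed minus that in nonprimed cells, passed for 14 of all 9745 genes (0.144%), 1240 having an unadjusted p under 0.05. The smallest adjusted p values belonged to Gzmb, Hk3 and Cfp. Hk3, a hexokinase of myeloid cells, was at 14.6, 15.1 and 16.1 untreated and 18.5, 18.3 and 15.4 with IACS (0.15 ± 0.08, adjusted p = 0.21) and changed by 1.20 in OHT-primed cells. Cfp, which encodes properdin, changed by -0.11 ± 0.08 (adjusted p = 0.4) and by 0.87. Of the genes described above with large changes in nonprimed cells, Lilrb4 (0.36, adjusted p = 0.3) and Arl4d (-0.23, adjusted p = 0.17) did not pass the test in OHT-primed cells, which does not show that the responses differed.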

How the data were processed

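Total RNA depleted of ribosomal RNA was sequenced from 12 libraries, grouped by the sample labels. The authors deposited RPKM per gene and library, which per the labels' processing notes involved TopHat2 2.0.8, SAMtools, featureCounts 1.4.5-p1 and mm9. Their DESeq2 results for 3 comparisons (log2 fold changes, with adjusted p-values) were not used. Reads, gene lengths and library totals were recovered from the RPKM steps (100% of 15451 genes above 0 gave whole reads within a tolerance of 0.02). Depth limits genes with few reads, and a floor of 3 reads was set for folds; bounds cover counting error only.

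RPKM were scaled by median ratios and log2(RPKM + 0.1) of genes that reached an RPKM of 1 in 3 or more libraries was fitted with limma 3.58.1 (R 4.3.3), all 12 libraries in a single fit with a mean-variance trend. Two-sided p were adjusted over all genes (Benjamini-Hochberg) and called under 0.05. On simulated data, 190 of 200 genes changed by 1 (95%) and 9 of 9545 unchanged genes were called. Named genes were the 12 largest rises and falls among called genes without overlap of libraries, up to 4 called members of each list, a hand-written set, and the 3 smallest p of the interaction. Members and lists were chosen with earlier results of these data known. Alternatives were other pseudocounts, filters, scalings and fits, the library total as a covariate, limma voom on recovered reads, the replicate number as a block, and each library left out. Promoters came from RefSeq (GRCm38.p6). A few genes of the lists are counted but not reported here by name.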

Additional observations from a re-analysis of the deposited data

Results flagged for a closer look

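The test of the difference between the responses of OHT-primed and nonprimed cells to IACS-010759 (limma, Benjamini-Hochberg adjusted) passed for 5 of the genes named above. Hk3 and Cfp were named only for their small p in this same test. The log2 change was larger in OHT-primed cells by 1.05 for Gzmb (0.55 nonprimed and 1.6 primed, adjusted p = 6.7e-05), by 1.04 for Hk3 (0.15 and 1.20, adjusted p = 0.0015) and by 0.98 for Cfp (-0.11 and 0.87, adjusted p = 0.0035). It was larger by 0.50 for Mycn (0.32 and 0.82, adjusted p = 0.039). For Rras, which held 1 to 12 reads in the nonprimed libraries, the fitted difference was 1.86 (-1.87 and -0.01, adjusted p = 0.039), and it is no bound on the fold. The number of genes that passed this test moved from 3 to 130 with a single library left out.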

How the results depend on the processing

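For IACS against untreated, the number of DEGs was 1548 and ran from 950 to 1806 with each of the 12 libraries left out in turn, the rises from 497 to 937 and the falls from 429 to 877. With the RPKM as deposited 469 genes fell. In OHT-primed cells the number ran from 1521 to 2950 with a library left out. The interaction passed for 14 genes and for 3 to 130 with a library left out, with 3 without OHT replicate 3 or without OHT_IACS replicate 3 and 130 without OHT replicate 2. It passed for 5 genes with the RPKM as deposited and also with the library total as a covariate, for 7 without a filter and with the replicate block, for 25 with voom on recovered reads and for 34 with quantile normalization. Of the genes in the lists other than ATF4 and sterol, 172 of 1183 (14.5%) were called, 265 with quantile normalization and 111 to 209 with a library left out. The replicate numbers did not pair the samples (correlations of deviations 0.0852, 0.0445 and -0.133), and the replicate block gave 1486 DEGs. Of 169 named genes 144 were called. None of these reversed under the 23 alternatives, 90 kept the call under all of them, and 323 of 3281 values were no longer past the threshold. Of the 25 named genes not called, 8 were called under at least 1 alternative. Among these were Hspa5, Mcm2, Cdk1 and Mcl1, which were called lower with the library total as a covariate. The causes of these shifts were not tested. Depth limits the genes with few reads, such as the microRNA genes, Rras and Cox6a2.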
